A study of Mus musculus with 12 samples.

Results

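The change of intron reads on stimulation was set beside the change of exon reads of the same gene in splenic regulatory T cells (Treg). A gene was included when it held at least 10 intron reads in at least 6 of the 12 libraries. This gave 9688 of 41457 genes, of which 9018 (93.1%) were protein coding, and 4941 (51.0%) held 10 intron reads in all 12 libraries. The rule used the amount of intron reads and no change. Of the 9688 genes, 8838 also passed the filter on exon reads, and the difference between exon and intron change was tested in these; the other 850 have an intron change only. At the edge of the rule, the 676 genes with 10 reads in exactly 6 libraries had a median of 13.0 intron reads per library, and the 574 genes just outside, with 10 reads in 5 libraries, had a median of 9.75.

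All mice carried a Cre recombinase expressed under Foxp3 control and a red fluorescent reporter (RFP) that marks cells with Cre activity. In CD18Foxp3 mice the floxed exon 3 of Itgb2, the gene of the β2-integrin chain CD18, is deleted in Foxp3-expressing cells, and CD18wt littermates have the unmodified gene. Splenic RFP+CD4+ T cells were sorted and kept overnight in 5 U/mL IL-2 (Unstimulated), or in IL-2 with 1 µg/mL anti-CD3 and 2 µg/mL anti-CD28 (Stimulated). There were 3 libraries of each genotype and culture, so 6 Stimulated were compared with 6 Unstimulated libraries with genotype as covariate. The labels give no age. Only 1 time point was measured. Sorted cells can still differ in composition between cultures: fewer cells of a kind and less RNA per cell cannot be told apart in bulk RNA.

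RNA polymerase II transcribes exons and introns together, and the spliceosome removes introns while or soon after the transcript is made. Intron reads therefore come mostly from unspliced or partly spliced precursors, whose level follows transcription closely, while exon reads come mostly from mature mRNA, which accumulates or decays over hours. Setting the change of exons against that of introns is a common way to look for change after transcription, in RNA stability or processing. In T cells, signals through CD3 and CD28 are known to start a wave of immediate-early transcription, to end the quiescence program, and to alter the decay of many short-lived mRNAs through proteins such as Regnase-1, Roquin and the ZFP36 family.

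The libraries held 10665174 to 19005482 exon reads and 366391 to 1159670 intron reads. These were poly(A)-selected libraries from a kit that does not mark strand, so an intron read of a gene can also come from an overlapping gene, and 2321 of the 9688 genes overlapped another gene with a mean of at least 10 exon reads. Reads in an annotated retained intron are counted as exon reads, because the exon length in the files equals the union of all annotated transcripts in 94.1% of the genes, and 60.6% of them have a retained-intron transcript. Segments of T cell receptor and immunoglobulin loci, 149 of the genes, took 7.83% to 12.6% of the intron reads in Unstimulated and 2.86% to 5.27% in Stimulated libraries. Of the markers of the sorted cells, Foxp3 was present in every library, at 143 to 293 exon CPM (counts scaled by library size), and the 7 B cell markers summed to 14.1 to 21.1 exon CPM in Unstimulated and 4.72 to 9.47 in Stimulated libraries. Other marker sums went up: plasma cell markers from 74.0 to 93.5 CPM to 120 to 168 CPM, and dendritic cell markers from 1.26 to 3.82 CPM to 5.16 to 10.4 CPM. Cytotoxic markers summed to 30.4 to 46.6 CPM in Unstimulated, 29.6 to 36.4 in CD18wt Stimulated and 76.0 to 156 in CD18Foxp3 Stimulated libraries. The genes within these sums did not all move alike. By the calls defined below, exons rose in 1 and fell in 4 of the 5 cytotoxic markers tested. They rose in 2 and fell in 1 of 3 plasma cell markers, and rose in 1 and fell in 0 of 2 dendritic cell markers. Over all genes tested, 22.7% rose and 19.5% fell. Myeloid markers were at 3.53 to 10.9 and 2.30 to 4.89 CPM, and erythroid markers at 1.05 to 17.3 and 0.0539 to 1.08 CPM. The part of these cells in the results was not tested.

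Intron reads made up 5.22% ± 0.875 (SD, n = 6) of all gene reads in Stimulated and 4.62% ± 0.642 (SD, n = 6) in Unstimulated libraries. The difference of 0.603 percentage points did not pass (exact permutation test, two-sided p = 0.212; the smallest p the design allows is 0.00216). Without CD18wt Stimulated replicate 2, which had 3.66%, the difference was 0.916 (exact permutation p = 0.0216). CD18wt Unstimulated replicate 3 stood apart from the other Unstimulated libraries, with 3.32% where the next lowest had 4.75%. That library also held fewer reads of genes induced within minutes to hours of activation. Its negative feedback genes summed to 1110 intron CPM, where the other Unstimulated libraries held 4200 to 5330, and to 1560 exon CPM against 3110 to 4780. Values without this library are given below for several of the genes in which it stood apart, but not for Fos and Fosb.

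**Figure D1:**
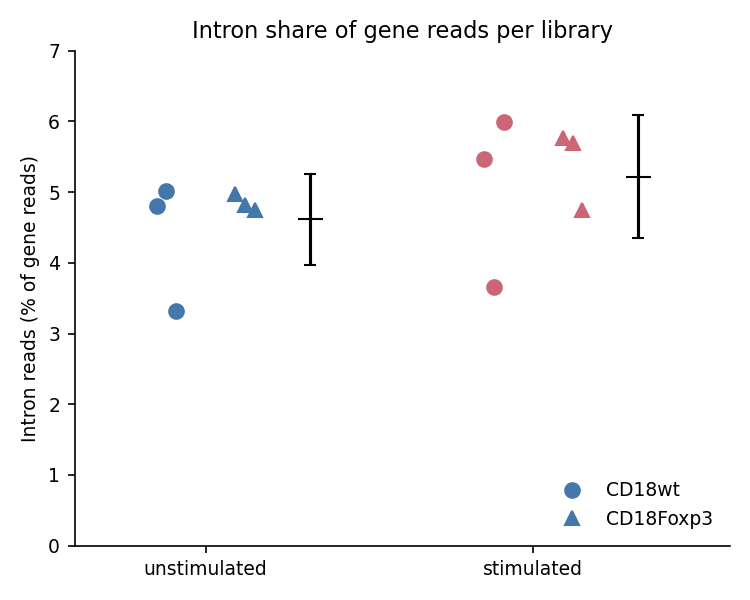
Intron reads as a percentage of all gene reads (y axis) in each library, by culture (x axis); circles are CD18wt and triangles CD18Foxp3, and the bars beside them give mean and SD of 6 libraries. The lowest points, at 3.32% and 3.66%, are CD18wt Unstimulated replicate 3 and CD18wt Stimulated replicate 2.

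Levels are CPM, the usual unit of counts scaled by library size, with each read class scaled on its own. The library sizes also carry a normalization factor for each library, so a level is not the plain share of reads. The factor raised the level of Itgb2 introns in CD18wt Unstimulated replicate 3 (98 of 366391 intron reads, given as 345 CPM). It lowered that in CD18wt Stimulated replicate 1 (319 of 690468 intron reads, given as 425 CPM). Levels are given as lowest, median and highest of the 6 libraries of a culture. A change is a log2 fold change, Stimulated against Unstimulated, and a gene was called where the fold was 1.5 or more and the adjusted p 0.01 or less (edgeR quasi-likelihood test). The difference is the exon change minus the intron change of a gene, estimated in 1 model over both read classes. Introns rose in 1557 genes (16.1% of 9688) and fell in 1535 (15.8%). Of the 12636 genes tested in exons, 2870 rose (22.7%) and 2459 fell (19.5%), together 42.2%, against 31.9% in introns. The difference was called in 1020 genes as an exon change above the intron change (11.5% of 8838) and in 884 as an exon change below it (10.0%), together 21.5%.

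These counts depend on how intron reads are scaled. Introns were scaled on their own, which sets the typical intron change near 0 (median 0.08). When exon library sizes were used for the introns, the median intron change was 0.41, 2035 genes rose and 747 fell, and the difference was called as higher in 328 and as lower in 1137. With upper-quartile normalization, introns rose in 2004 and fell in 1217 genes, and the difference was higher in 610 and lower in 1454. A common shift of all introns therefore cannot be told apart from scaling, and the results below are changes relative to the typical gene. Calls were also fewer in genes with few intron reads: with a mean under 20, 338 genes rose and 93 fell (21.4% of 2015), and with a mean over 100, 221 rose and 776 fell (48.8% of 2042). Of the 323 genes that met the rule only through the 6 Stimulated libraries, 306 were called higher in introns, which the rule itself favours; without them introns rose in 1251 of the other 9365 genes. Another 14 genes met it only through the 6 Unstimulated libraries and all 14 were called lower, which the rule favours as well. Fos, Fosb, Dusp1 and Gm26887 are among them. Without the genes of either kind the difference was called as higher in 1015 and as lower in 842 of 8671.

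Among the 1020 genes whose exon change was above the intron change, introns fell with no call in exons in 347, exons rose with no call in introns in 358, and exons rose while introns fell in 60. In the other genes both were called the same way (124) or neither was called by itself (131). The 884 genes with the opposite difference held 257 in which introns rose alone, 358 in which exons fell alone and 51 in which introns rose while exons fell. The median exon change was 0.50 and the median intron change -0.76 in the former group, and -0.64 and 0.79 in the latter.

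**Figure D2:**
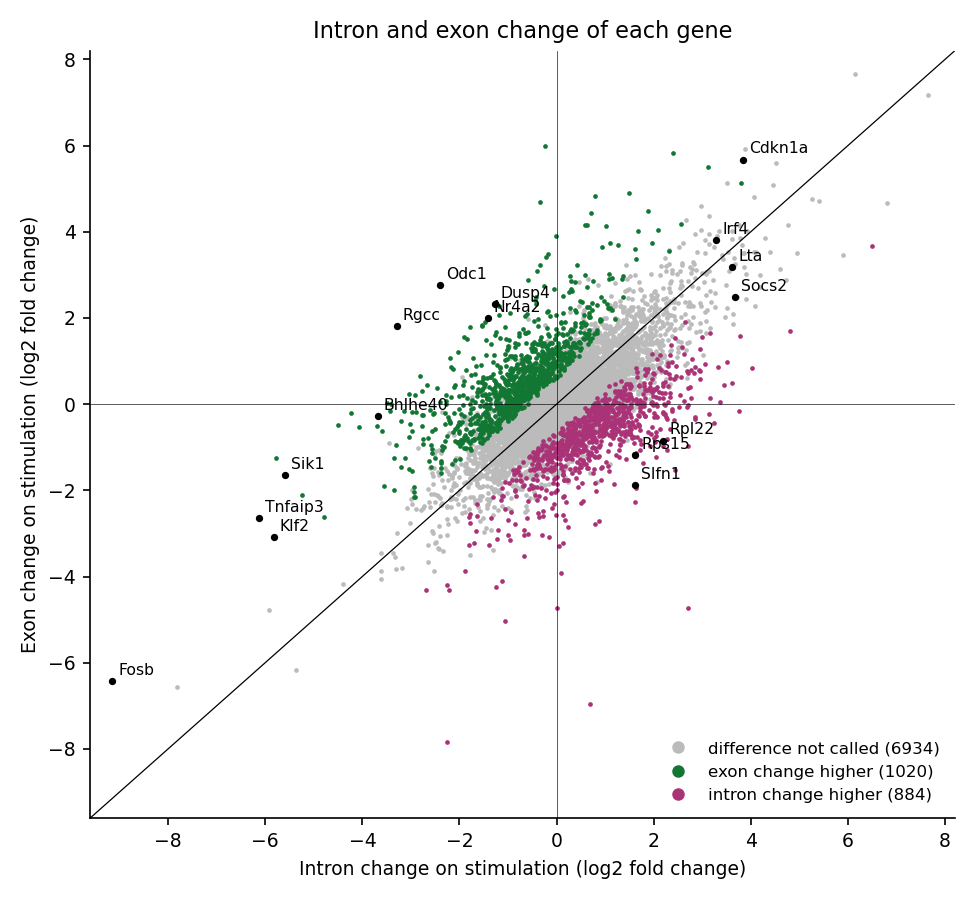
Exon change (y axis) against intron change (x axis) on stimulation, both as log2 fold change, for the 8838 genes tested for the difference; the diagonal marks equal change. The 1020 genes with the exon change above the intron change (green) lie above the diagonal and the 884 with the reverse (purple) below it, with Odc1, Rgcc, Sik1 and Tnfaip3 far above and Slfn1, Rpl22 and Rps15 far below.

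The largest difference among genes with a mean of at least 50 intron reads and no overlap with an expressed gene was that of Odc1 (ENSMUSG00000011179, chromosome 12, 17544794 to 17551505, GRCm38), the rate-limiting enzyme of polyamine synthesis. Its exon level was 180, 190 and 240 CPM in Unstimulated and 1100, 1450 and 1530 CPM in Stimulated libraries, a rise of 2.77 (SE 0.11, adjusted p = 5.66e-12). Its intron level was 38.8, 652 and 1060 CPM in Unstimulated and 92.6, 111 and 165 CPM in Stimulated libraries. The intron groups overlapped only through CD18wt Unstimulated replicate 3, which held the 38.8 CPM. The intron change was -2.40 (SE 0.54, adjusted p = 0.00483), and -2.64 without that library (adjusted p = 9.41e-14). The call in introns was lost without CD18wt Unstimulated replicate 2, CD18Foxp3 Unstimulated replicate 1 or 2, CD18wt Stimulated replicate 1 or 2, or any CD18Foxp3 Stimulated library, with an adjusted p of 0.0102 to 0.0143, and with the replicate number as a block. The difference of 4.98 (SE 0.48, adjusted p = 8.29e-07) kept its call when any library was left out and with the block.

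Rgcc (chromosome 14, 79288756 to 79301645), a regulator of the cell cycle, lost much of its intron share: introns were 37.3%, 80.7% and 89.3% of its reads in Unstimulated and 7.40%, 13.9% and 21.3% in Stimulated libraries. Its exon level rose from a median of 4.39 to 13.2 CPM (log2 fold change 1.80, SE 0.24), while its intron level fell from a median of 394 to 39.8 CPM (log2 fold change -3.29, SE 0.47), and neither read class overlapped between cultures. Dusp4, a phosphatase that inactivates MAP kinases, rose in exons from a median of 44.6 to 245 CPM (log2 fold change 2.33, SE 0.19) and fell in introns from 179 to 55.4 CPM (-1.28, SE 0.28). The intron call of Dusp4 was lost with exon library sizes, and its intron groups overlapped through CD18wt Stimulated replicate 3, at 168 CPM. Nr4a2, a nuclear receptor induced by T cell receptor signals, rose in exons from 8.70 to 37.5 CPM (2.00, SE 0.27) and fell in introns from 168 to 73.2 CPM (-1.42, SE 0.28), with intron groups that overlapped.

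Cdk8 (chromosome 5, 146231230 to 146302874), the kinase of the Mediator complex, rose in exons from a median of 19.0 to 63.4 CPM (log2 fold change 1.83, SE 0.10). Its introns held 2240, 2660 and 8560 CPM in Unstimulated and 700.0, 1060 and 3050 CPM in Stimulated libraries and were not called (-1.53, SE 0.42, adjusted p = 0.0134). The highest intron levels of Cdk8 in either culture were in the libraries with the lowest intron share, CD18wt Unstimulated replicate 3 and CD18wt Stimulated replicate 2. The difference was 3.35 (SE 0.39), and 3.07 without the former library.

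In a further set of genes introns fell far more than exons. Tnfaip3 (ENSMUSG00000019850, chromosome 10, 19000910 to 19015657), the gene of the NF-κB inhibitor A20, had an intron level of 134, 1780 and 1990 CPM in Unstimulated and of 4.48, 19.2 and 42.0 CPM in Stimulated libraries, a fall of 6.13 on the log2 scale (SE 0.71, adjusted p = 7.33e-05). Its exon level was 108, 564 and 902 CPM in Unstimulated and 76.2, 86.8 and 104 CPM in Stimulated libraries, a change of -2.65 (SE 0.41). Neither overlapped between cultures, the lowest Unstimulated values being those of CD18wt replicate 3, and the difference was 3.47 (SE 0.30), or 3.58 without that library.

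Sik1, a kinase of the salt-inducible family that is itself induced as an early response gene, had introns at 70.5, 592 and 675 CPM in Unstimulated and at 2.99, 10.0 and 16.6 CPM in Stimulated libraries (log2 fold change -5.60, SE 0.56). Its exon change was -1.64 (SE 0.45, adjusted p = 0.00833), a call lost without any library other than CD18wt Unstimulated replicate 3 (adjusted p 0.0106 to 0.0214) and with the replicate number as a block, and the exon groups overlapped. Bhlhe40, a transcription factor of activated T cells, had no call in exons (-0.28, SE 0.25, adjusted p = 0.341), at medians of 191 and 143 CPM, while introns fell from a median of 235 to 8.38 CPM (-3.69, SE 0.70), a call lost with the replicate number as a block. The intron groups of Bhlhe40 overlapped through CD18wt Unstimulated replicate 3, at 10.6 CPM where the next lowest library held 225. The difference was 4.02 (SE 0.24) in Sik1 and 3.39 (SE 0.40) in Bhlhe40. Without that library Bhlhe40 changed by -0.49 in exons (adjusted p = 0.000135, under the 1.5-fold needed for a call) and by -4.02 in introns, with a difference of 3.56, and Sik1 by -1.86 and -5.83, with a difference of 4.02. The differences in Rgcc, Dusp4 and Nr4a2 were then 5.15, 3.69 and 3.37.

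Fos and Fosb, immediate-early genes whose products form the AP-1 factor, were nearly empty of intron reads after stimulation. In Fos, the Unstimulated libraries held 22, 151 and 365 intron reads (lowest, median, highest), and the 6 Stimulated libraries held 0 except for 1 and 4 reads in CD18wt replicate 3 and CD18Foxp3 replicate 3. Fos exons fell from 30.3, 756 and 1710 CPM to 6.25, 8.52 and 11.9 CPM (log2 fold change -6.56, SE 0.89). Fosb held 10, 410 and 814 intron reads in Unstimulated and at most 4 in Stimulated libraries, and its exons fell from 6.39, 303 and 699 CPM to 2.58, 3.92 and 6.54 CPM, which overlapped through CD18wt Unstimulated replicate 3. With so few intron reads left, the size of the intron change and of the difference in both genes depends on the prior count and is not read here. Introns of Klf2, a transcription factor of quiescent T cells, fell from 296, 756 and 1030 CPM to 0, 8.84 and 23.6 CPM, more than its exons, which fell from a median of 362 to 40.2 CPM (difference 2.59, SE 0.46). Gm26887, a gene without a known role, was lower in both read classes after stimulation, with 92.2 to 201 intron CPM in Unstimulated and 0 to 6.98 in Stimulated libraries. Gm26887 met the rule only through the 6 Unstimulated libraries, which favours a fall in introns.

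**Figure D3:**
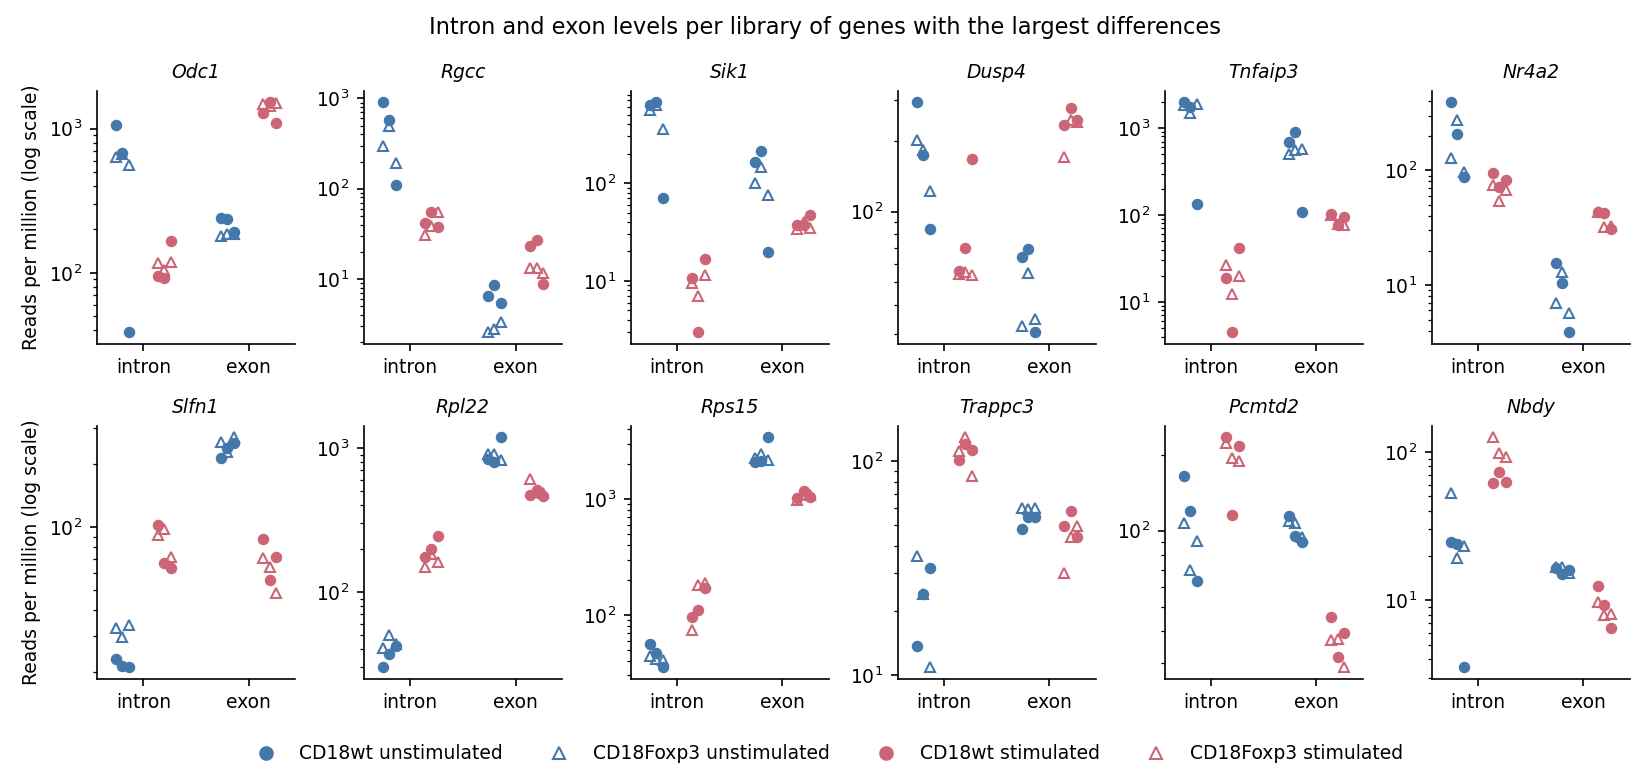
Intron and exon levels of 12 genes in each library, in CPM of their read class (y axis, log scale), blue for Unstimulated and red for Stimulated, circles for CD18wt and open triangles for CD18Foxp3. In the upper row introns fell while exons rose (Odc1, Rgcc, Dusp4, Nr4a2) or fell less (Sik1, Tnfaip3), as in Odc1 with medians of 652 and 111 intron CPM, and in the lower row introns rose while exons fell or, in Trappc3, had no call, as in Rpl22 with medians of 41.5 and 179 intron CPM.

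Proteins that destroy or protect mRNAs, and the mRNAs known as their targets, were listed as groups. Of 25 mRNA decay and AU-rich element binding factors tested for the difference, 8 had an exon change above the intron change and 0 the reverse (median difference 0.47, against -0.03 over all genes tested), where 11.5% and 10.0% of all genes were called. Introns fell in 8 of the 25 and rose in 2, against 15.8% and 16.1% of all genes, and with exon library sizes they fell in 4 and rose in 4. Zc3h12a, which encodes the endonuclease Regnase-1, had a difference of 1.95 (SE 0.21, adjusted p = 4.05e-07): introns fell from 88.1, 288 and 297 CPM to 62.8, 91.9 and 116 CPM, while exons, at medians of 26.4 and 33.2 CPM, had no call. The Roquin genes Rc3h1 and Rc3h2, which bind stem-loops in target mRNAs, rose in exons (0.70, SE 0.10, and 0.80, SE 0.13) with differences of 1.67 (SE 0.22) and 1.47 (SE 0.30). Tob2, an antiproliferative protein that recruits the CCR4-NOT deadenylase, had a difference of 2.31 (SE 0.34), with an intron change of -1.94 (SE 0.37). Cnot1, the scaffold of that deadenylase, had a difference of 1.32 (SE 0.17), which lost its call with exon library sizes and overlaps an expressed gene. Without CD18wt Unstimulated replicate 3 the count for the list was 10 of 25, and with exon library sizes 4 higher and 1 lower.

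Among 16 mRNAs known as targets of ZFP36, Roquin or Regnase-1, the exon change was above the intron change in 8 and below it in 0 (median difference 1.07), against 11.5% and 10.0% of all genes, and with exon library sizes in 6 and 0. Il10, an antiinflammatory cytokine of Treg, rose in exons from 3.77, 6.83 and 10.2 CPM to 38.8, 50.2 and 73.4 CPM (log2 fold change 2.98, SE 0.23), while its introns held 77.6, 95.7 and 161 CPM and 103, 125 and 143 CPM (0.27, SE 0.21, not called). The difference in Il10 was 2.72 (SE 0.27, adjusted p = 1.17e-07). Ctla4, a coinhibitory receptor by which Treg remove CD80 and CD86, rose in exons from a median of 180 to 530 CPM (1.48, SE 0.25), with introns at medians of 2120 and 1150 CPM (-0.98, SE 0.37, adjusted p = 0.0521, and called at -1.17 without CD18wt Unstimulated replicate 3). Rel, an NF-κB subunit needed for Treg activation, rose in exons from a median of 67.9 to 229 CPM (1.81, SE 0.13) without a call in introns (-0.37, SE 0.27), and Nfkbid, a nuclear regulator of NF-κB, had a difference of 2.15 (SE 0.24). Ifng had a difference of 3.57 (SE 0.35), but only 38.1% of its intron reads were placed uniquely.

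Other targets on this list rose in both read classes with no called difference. Tnf rose by 2.75 (SE 0.21) in exons and 2.59 (SE 0.55) in introns, Myc by 1.82 (SE 0.17) and 1.54 (SE 0.31), and the costimulatory receptor Tnfrsf4 (OX40) by 2.08 (SE 0.11) and 1.64 (SE 0.30). The differences were 0.14 (SE 0.56) in Tnf, 0.30 (SE 0.27) in Myc and 0.46 (SE 0.29) in Tnfrsf4, none of them called. Il2 introns held a median of 0 CPM in Unstimulated and 15.1 to 55.7 CPM in Stimulated libraries, too few in the former for a difference to be measured (standard error 1.29).

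AU-rich elements in the 3′ UTR are the known binding sites of the ZFP36 family, and the core nonamer TTATTTATT was searched on the mRNA strand of the 3′ UTR of 1 coding transcript per gene (GENCODE M21, GRCm38), overlapping matches included. The matches below, each in a window of 25 bases with the nonamer in capitals, are shown because these genes had the same letters and unlike differences. Rel, Cd28, Fosl2 and Rc3h1 had an exon change above the intron change, Tnf and Lta had no call, and Cd4 had an exon change below the intron change.
Rel (chr11:23737836-23737860, minus strand): cccagactTTATTTATTttttttag
Cd28 (chr1:60773207-60773231, plus strand): tatttttcTTATTTATTggtttatt
Fosl2 (chr5:32156873-32156897, plus strand): ttattttaTTATTTATTttaaatgt
Rc3h1 (chr1:160970045-160970069, plus strand): tttactcaTTATTTATTgagatgag
Tnf (chr17:35199691-35199715, minus strand, the first of 5 overlapping or adjoining matches): tgcacttaTTATTTATTatttattt
Lta (chr17:35203398-35203422, minus strand): aagttaagTTATTTATTtatagaga
Cd4 (chr6:124866021-124866045, minus strand): ccatcagcTTATTTATTcttcgctg

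The nonamer was present in the 3′ UTR of 10.1% of 1002 genes with an exon change above the intron change, of 4.76% of 861 genes with the reverse and of 7.57% of all 8569 tested genes that have a 3′ UTR. These groups differed in 3′ UTR length, with medians of 1464, 724 and 1012 bases, and a longer UTR holds any word more often. Among UTRs of up to 500 bases the nonamer was in 6 of 192, 5 of 312 and, of the genes without a call, 34 of 1906 (3.12% and 1.78% for the first and last), and from 500 to 1000 bases in 5.88%, 3.17% and 5.64%. Among UTRs over 2000 bases the shares were 17.4% of 385, 10.3% of 146 and 15.5% of the 1720 genes without a call; from 1000 to 2000 bases they were 7.56%, 7.73% and 8.06%. No test was made of these shares.

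Splicing factors were a further group. Of 39 splicing factors and splicing kinases, 16 had an exon change above the intron change and 1 the reverse (median difference 0.54), against 11.5% and 10.0% of all genes, and with exon library sizes 10 and 2. Exons rose in 16 of 40 (22.7% of all genes) and introns fell in 9 of 39 and rose in 3 (15.8% and 16.1% of all genes), but fell in 5 and rose in 6 with exon library sizes. Srsf6, an SR protein, rose in exons from 129, 146 and 155 CPM to 261, 289 and 356 CPM (log2 fold change 1.07, SE 0.09) with a difference of 2.88 (SE 0.36). Srsf7 rose in exons from a median of 87.4 to 261 CPM (1.57, SE 0.10) with introns at medians of 514 and 239 CPM that overlapped (-0.77, SE 0.46, adjusted p = 0.202). In Ddx5, an RNA helicase, introns fell from 694, 1460 and 1950 CPM to 118, 175 and 231 CPM (-3.04, SE 0.23) and exons fell less, from a median of 1940 to 1050 CPM (-0.76, SE 0.13). Introns of Srsf5 fell from a median of 127 to 17.0 CPM (-2.90, SE 0.33) with no call in exons (-0.19, SE 0.19), and those of the splicing kinase Clk1 from 554 to 128 CPM (-2.09, SE 0.20).

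Hnrnph1, a splicing regulator, had opposite calls, with exons up by 0.86 (SE 0.09) and introns changed by -1.15 (SE 0.19), the latter lost with exon library sizes. Ddx17, the close relative of Ddx5, was the 1 gene of the list with the reverse difference: its introns rose from a median of 133 to 294 CPM (1.14, SE 0.20) while its exon change was -0.50 (SE 0.09). Srsf10 rose in both, by 1.09 (SE 0.10) in exons and 1.22 (SE 0.25) in introns. SR protein genes and Clk1 are known for introns that stay in nuclear polyadenylated RNA, and 9 genes known for such detained introns were listed apart: 5 had an exon change above the intron change and 0 the reverse (median difference 0.86), against 11.5% and 10.0% of all genes. With exon library sizes, with upper-quartile normalization or without CD18Foxp3 Stimulated replicate 3, it was 3 of 9.

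Transcription factors of activation and negative feedback genes are read against the 11.5% of all genes called in this direction. Of 30 immediate-early and activation transcription factors, 14 had an exon change above the intron change and 1 the reverse (8 and 2 with exon library sizes), and of 21 negative feedback genes 11 and 1 (5 and 2 with exon library sizes). The former list holds Fos, Fosb and 1 more gene that met the rule through 1 culture only, and without these 3 the count was 13 and 0 of 27. The latter holds Dusp1, and without it the count was 11 and 1 of 20. Fosl1, an AP-1 subunit, rose in exons from 0.123, 0.295 and 0.628 CPM to 16.2, 17.1 and 21.1 CPM (log2 fold change 5.83, SE 0.27) and in introns from 4.46, 11.5 and 38.8 CPM to 41.3, 69.7 and 98.5 CPM (2.40, SE 0.40). Its difference was 3.42 (SE 0.47, adjusted p = 7.99e-06). Fosl2 rose in exons alone, from a median of 13.1 to 87.9 CPM (2.67, SE 0.12), with introns at medians of 27.4 and 40.6 CPM (0.29, SE 0.42). Nr4a1, a nuclear receptor used as a reporter of T cell receptor signals, rose in exons from a median of 177 to 321 CPM (0.97, SE 0.20), with introns at 883 and 305 CPM that were not called (-1.31, SE 0.46, adjusted p = 0.0418) and were called without CD18wt Unstimulated replicate 3 (-1.56, adjusted p = 2.51e-08). Nfkb2, the p100 subunit, had exons up by 1.16 (SE 0.12) and introns changed by -1.06 (SE 0.20), without overlap of the libraries in either, although its span overlaps an expressed gene.

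Of the feedback genes, Pim3, a survival kinase, had exons up from a median of 35.2 to 78.3 CPM and introns changed from 84.9 to 19.7 CPM (difference 3.17, SE 0.34). Dusp5, a nuclear MAP kinase phosphatase, rose in exons (1.08, SE 0.17) with a difference of 3.12 (SE 0.35). Dusp10 fell in both read classes, by 1.26 in exons and by 5.78 in introns on the log2 scale, with a difference of 4.42 (SE 0.50); its span overlaps an expressed gene.

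Mir155hg, the host transcript of miR-155, rose in exons from 0.308, 1.08 and 1.30 CPM to 7.86, 11.1 and 19.9 CPM (log2 fold change 3.73, SE 0.34). Its introns held 7.05, 108 and 176 CPM in Unstimulated and 191, 218 and 302 CPM in Stimulated libraries (1.10, SE 0.36, adjusted p = 0.0253), which was called without CD18wt Unstimulated replicate 3 (0.90, adjusted p = 0.000145). The difference was 2.58 (SE 0.41), a call lost with limma. miR-155 supports Treg fitness by lowering the signalling inhibitor Socs1, and its mature 5p strand (RefSeq, GRCm38.p6, chr16:84714143-84714165, plus strand) is shown with the seed, bases 2 to 8, in capitals. The libraries do not measure the mature miRNA.
mmu-miR-155-5p: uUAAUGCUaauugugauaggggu

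In the opposite direction, introns rose while exons fell or had no call. Slfn1 (ENSMUSG00000078763, chromosome 11, 83116849 to 83122670), a Schlafen family gene known from quiescent T cells, had an exon level of 216, 247 and 271 CPM in Unstimulated and 48.2, 67.7 and 87.9 CPM in Stimulated libraries (log2 fold change -1.88, SE 0.12). Its intron level was 21.2, 26.5 and 34.0 CPM in Unstimulated and 63.9, 81.9 and 103 CPM in Stimulated libraries (1.61, SE 0.27). Neither read class overlapped, and the difference was -3.49 (SE 0.20, adjusted p = 9.12e-11). Trappc3, a subunit of the vesicle tethering complex TRAPP, had introns up from 10.9, 23.8 and 36.1 CPM to 84.7, 112 and 129 CPM (2.26, SE 0.28) with no call in exons (-0.30, SE 0.13). Pcmtd2 had exons down from a median of 101 to 37.1 CPM (-1.48, SE 0.11) and introns up from 99.2 to 205 CPM (0.92, SE 0.22) with intron groups that overlapped, and Nbdy, whose small protein binds the decapping complex, had exons down by 0.84 on the log2 scale and introns up from 23.5 to 83.0 CPM (1.72, SE 0.31). Lhfp and Magi2 also met the rule for named genes, with differences of -3.30 (SE 0.53) and -2.78 (SE 0.43). Their exons held at most 29 and 23 reads in any library, and only 2.75% of the intron reads of Lhfp were placed uniquely, so that its value may belong to another copy.

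Ribosomal protein genes were a group of this direction. Of 56 genes of cytosolic ribosomal proteins, 30 had an exon change below the intron change and 1 above it (median difference -0.99), where 10.0% of all genes were called lower. The count was 24 and 0 with exon library sizes and 23 to 30 when each library was left out in turn. Exons fell in 44 of 61 and rose in 1 (19.5% and 22.7% of all genes), and introns rose in 10 of 56, near the 16.1% of all genes, and fell in 1. Summed over the 61 genes, exon levels were 121000 to 160000 CPM in Unstimulated and 68700 to 83200 CPM in Stimulated libraries. Rpl22 (chromosome 4, 152325742 to 152334071) had exons at 805, 870.0 and 1190 CPM and then 467, 491 and 609 CPM (log2 fold change -0.85, SE 0.11), and introns at 30.0, 41.5 and 50.6 CPM and then 148, 179 and 245 CPM (2.19, SE 0.22). Rps15 had exons down from a median of 2210 to 1070 CPM (-1.18, SE 0.11) and introns up from 42.8 to 141 CPM (1.62, SE 0.25), and Rps19 had a difference of -3.30 (SE 0.32) with introns up from 6.99 to 43.1 CPM. Rps4x had a difference of -1.93 (SE 0.28). Many ribosomal protein genes have processed pseudogenes and host small nucleolar RNAs, and reads of such copies can be counted elsewhere.

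Interferon-stimulated genes had the same direction in 13 of 22 genes, with 0 the other way (edgeR; median difference -0.999), against 10.0% of all genes called lower, and in 15 and 0 with exon library sizes and 14 and 0 with DESeq2. Exons fell in 17 of 29 and rose in 2, while introns rose in 8 of 22 and fell in 4; over all genes 19.5% fell in exons and 16.1% rose in introns. Of the 22, 1 met the rule only through the Stimulated libraries and was among the 8, and without it the difference was lower in 12 of 21. Xaf1, a proapoptotic interferon target, had exons down from 23.3, 24.1 and 25.3 CPM to 3.76, 7.27 and 8.83 CPM (log2 fold change -1.85, SE 0.16), with introns at medians of 24.8 and 54.6 CPM (1.19, SE 0.41, adjusted p = 0.0171). Isg20, an RNA exonuclease, had exons down from a median of 44.8 to 9.20 CPM (-2.31, SE 0.13) with introns at 17.8 and 17.3 CPM (-0.05, SE 0.49). In Irgm1, an interferon-induced GTPase, introns rose from 28.2, 53.0 and 80.2 CPM to 138, 168 and 272 CPM (1.72, SE 0.23) while exons held at medians of 138 and 147 CPM (0.10, SE 0.11). Introns rose without a call in exons also in Gbp3, of the guanylate-binding family (1.49, SE 0.27), and in Bst2, the gene of tetherin (2.18, SE 0.49).

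The next genes were called higher in both read classes, had a mean of at least 50 intron reads and overlapped no expressed gene. Ranked by the intron change, the largest rises among such genes were in Cdkn1a, Bcat1, Socs2, Lta, Irf4 and Mcm5. Cdkn1a, the gene of the cell cycle inhibitor p21, rose in exons from 1.89, 2.71 and 3.77 CPM to 94.5, 142 and 205 CPM (log2 fold change 5.67, SE 0.18) and in introns from 0, 9.26 and 20.8 CPM to 49.0, 151 and 224 CPM (3.84, SE 0.37), with a difference of 1.81 (SE 0.38) that was lost when junction reads stood for exon reads. Irf4, a transcription factor that drives effector Treg, rose from a median of 46.7 to 681 exon CPM (3.80, SE 0.14) and from 41.8 to 387 intron CPM (3.28, SE 0.40), and Lta, the gene of lymphotoxin α, by 3.18 (SE 0.14) and 3.62 (SE 0.26). The differences in Irf4 (0.57, SE 0.29) and Lta (-0.43, SE 0.25) were not called. Bcat1, an aminotransferase of branched-chain amino acids, rose by 5.13 (SE 0.17) and 3.80 (SE 0.30), and Mcm5, a subunit of the replicative helicase, by 2.25 (SE 0.11) and 3.26 (SE 0.31). Socs2, a feedback inhibitor of cytokine signals, rose by 2.48 (SE 0.13) and 3.67 (SE 0.31).

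Cell cycle and DNA replication genes rose in exons in 39 of 41 with 0 down (edgeR; 22.7% of all genes rose), and in introns in 22 of 32 with 1 down (16.1% of all genes rose). Of these 32, 12 met the rule only through the Stimulated libraries and all 12 were among the 22; without them introns rose in 10 of 20. Leaving out any of the Stimulated libraries left 18 to 20 genes in the test, of which 9 or 10 rose. The summed intron level of the list went the other way, from 4670 to 10100 CPM in Unstimulated to 2830 to 3580 CPM in Stimulated libraries. Ccnd3, the gene of cyclin D3, was the 1 member whose introns fell, from a median of 4680 to 978 CPM; an expressed gene overlaps its span. The difference was called as higher in 8 and lower in 0, against 11.5% and 10.0% of all genes (median difference 0.17, and -0.16 with exon library sizes), and in 7 of 20 without those 12 genes. Leaving out a Stimulated library gave a median difference of 0.638 to 0.763 in the 18 to 20 genes then tested. Cdk6, a kinase of G1, rose in exons from a median of 47.8 to 211 CPM (2.18, SE 0.12) with introns at 123 and 167 CPM that overlapped (0.38, SE 0.19), a difference of 1.80 (SE 0.22). Mcm3 rose in both with no called difference (2.21, SE 0.11, and 2.22, SE 0.40), as did Uhrf1, which recruits the maintenance DNA methyltransferase (3.52, SE 0.21, and 4.06, SE 0.51). Ribosome biogenesis genes rose in exons in 29 of 30 and in introns in 15 of 28 with 0 down (edgeR; 16.1% of all genes rose in introns). Their differences, 4 higher and 2 lower of 28, were close to the 21.5% called over all genes, and with exon library sizes 0 were higher and 1 lower.

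Metabolic genes of activated T cells rose in exons in 29 of 34 and in introns in 14 of 30, against 22.7% and 16.1% of all genes. Of the 30, 3 met the rule only through the Stimulated libraries and all 3 were among the 14; without them introns rose in 11 of 27. Of the differences, 9 were higher (11.5% of all genes) and 3 lower, the latter being the share of all genes (10.0%); the counts were 5 and 3 with exon library sizes and 7 and 5 with upper-quartile normalization. Slc16a1, a lactate transporter, rose in exons from 24.7, 27.8 and 41.4 CPM to 132, 170.0 and 199 CPM with introns at medians of 39.9 and 41.9 CPM that were not called (difference 2.37, SE 0.29). Sqle, an enzyme of cholesterol synthesis, likewise rose in exons alone (2.11, SE 0.15, against 0.14, SE 0.34, in introns). Introns of Slc3a2, the heavy chain of several amino acid transporters, fell from a median of 373 to 103 CPM (-1.75, SE 0.29) with no call in exons (0.40, SE 0.08). In Slc1a5, a glutamine transporter, introns rose more than exons (2.06, SE 0.17, against 1.05, SE 0.12).

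Quiescence and central T cell genes fell in both classes, exons in 24 of 27 with 1 up and introns in 21 of 23 with 0 up (edgeR; DESeq2 also called 0 introns higher), where 19.5% of all genes fell in exons and 15.8% in introns. Of the 23, Tsc22d3 met the rule only through the Unstimulated libraries, and without it introns fell in 20 of 22. Their difference was higher in 10 and lower in 2 of 23, against 11.5% and 10.0% of all genes (3 and 3 with exon library sizes, 5 and 5 with upper-quartile normalization, and 6 higher without CD18Foxp3 Stimulated replicate 1). Introns of Klf6 fell from 353, 847 and 1450 CPM to 10.4, 23.2 and 34.4 CPM (log2 fold change -5.24, SE 0.30), more than its exons (-2.11, SE 0.31; difference 3.17, SE 0.21). The reverse held in Pik3ip1, an inhibitor of PI3 kinase, where exons fell more than introns (-4.30, SE 0.13, against -2.70, SE 0.29). Il7r and S1pr1, receptors of resting T cells for IL-7 and sphingosine phosphate, fell in both classes, with uncalled differences of -0.47 (SE 0.19) and 0.63 (SE 0.34).

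T cell receptor signalling genes fell in exons in 23 of 35 and in introns in 18 of 35, against 19.5% and 15.8% of all genes, and in introns in 11 with exon library sizes. There were 5 differences higher and 6 lower, against 11.5% and 10.0% of all genes, and 0 higher and 5 lower with exon library sizes. The exons of the CD3 chains Cd3g and Cd3d and of the coreceptor Cd4 fell (-1.54, SE 0.10, then -1.75, SE 0.11, and -1.20, SE 0.08) without a call in introns (0.39, SE 0.28, then -0.48, SE 0.21, and -0.09, SE 0.17). Cd4 introns stood at 177, 208 and 229 CPM in Unstimulated and 165, 195 and 225 CPM in Stimulated libraries, and its exons at medians of 973 and 422 CPM. Introns of the costimulatory receptor Cd28 fell from 229, 717 and 1170 CPM to 177, 207 and 354 CPM (-1.62, SE 0.28) with exons at medians of 303 and 352 CPM (0.27, SE 0.11).

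The Treg identity genes went different ways, with 6 differences higher and 4 lower of 20, against 11.5% and 10.0% of all genes (2 and 3 with exon library sizes, 3 and 6 with upper-quartile normalization, and 1 to 4 lower when each library was left out). Ikzf2, the gene of Helios, had introns down from 1030, 1280 and 1400 CPM to 336, 437 and 556 CPM (log2 fold change -1.52, SE 0.16) and a difference of 2.15 (SE 0.19), although an expressed gene overlaps its span. Capg, an actin-capping protein, had introns up from a median of 55.3 to 294 CPM (2.46, SE 0.23), more than exons (0.89, SE 0.20; difference -1.59, SE 0.25). Il2ra, the high-affinity IL-2 receptor chain, rose in both, by 2.70 (SE 0.16) in exons and 2.19 (SE 0.18) in introns. Foxp3 introns had 0% uniquely placed reads and are overlapped by several genes, so its intron rise of 0.99 (SE 0.22) is uncertain. Of 32 costimulatory and coinhibitory receptors 6 differences were higher and 3 lower, the latter near the 10.0% of all genes; the counts were 2 and 2 with exon library sizes, 5 and 9 with upper-quartile normalization, and 1 to 4 lower when each library was left out. Of 13 cytokines and chemokines 5 were higher and 0 lower (3 and 0 with exon library sizes, 4 and 1 with upper-quartile normalization), and of 7 noncoding RNAs and small RNA hosts 2 and 2, both against 11.5% and 10.0% of all genes. Of the 13 cytokines and chemokines, 2 met the rule only through the Stimulated libraries, and introns rose in both.

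Itgb2, the gene deleted in CD18Foxp3 Treg, was checked in each group. Its exon level was 558, 511 and 502 CPM in CD18wt and 280.0, 316 and 274 CPM in CD18Foxp3 Unstimulated libraries, and 300.0, 333 and 291 CPM and 124, 184 and 173 CPM in the Stimulated ones. Its introns held 437, 367 and 345 CPM, 407, 422 and 503 CPM, 425, 393 and 385 CPM, and 288, 373 and 375 CPM in the same order of groups. The genotypes were thus apart in exons within each culture and overlapped in introns within Unstimulated libraries; in Stimulated libraries the CD18wt intron levels were all above those of CD18Foxp3. On stimulation Itgb2 fell in exons (log2 fold change -0.81, SE 0.10) without a call in introns (-0.15, SE 0.16), a difference of -0.67 (SE 0.16, adjusted p = 0.00256) that was not called in CD18Foxp3 libraries alone. Itgal, the α chain of LFA-1, had exons down from a median of 1140 to 513 CPM (-1.13, SE 0.09) and introns at 396 and 407 CPM (0.13, SE 0.19). Among the 29 adhesion and migration genes, 12 differences were higher and 8 lower, against 11.5% and 10.0% of all genes, but 5 and 8 with exon library sizes and 9 and 9 with upper-quartile normalization. Ccr8, a chemokine receptor of tissue Treg, rose in exons from 20.7, 39.0 and 42.1 CPM to 88.0, 112 and 209 CPM (1.81, SE 0.18) with a difference of 3.31 (SE 0.36), and introns of Cxcr4, the receptor for CXCL12, fell from a median of 249 to 8.05 CPM (-4.79, SE 0.34), more than its exons (-2.63, SE 0.29). Introns of Cd47, a ligand of the phagocyte receptor SIRPα, fell from a median of 706 to 256 CPM (-1.47, SE 0.16), with a difference of 1.02 (SE 0.17) that was lost with exon library sizes.

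**Figure D4:**
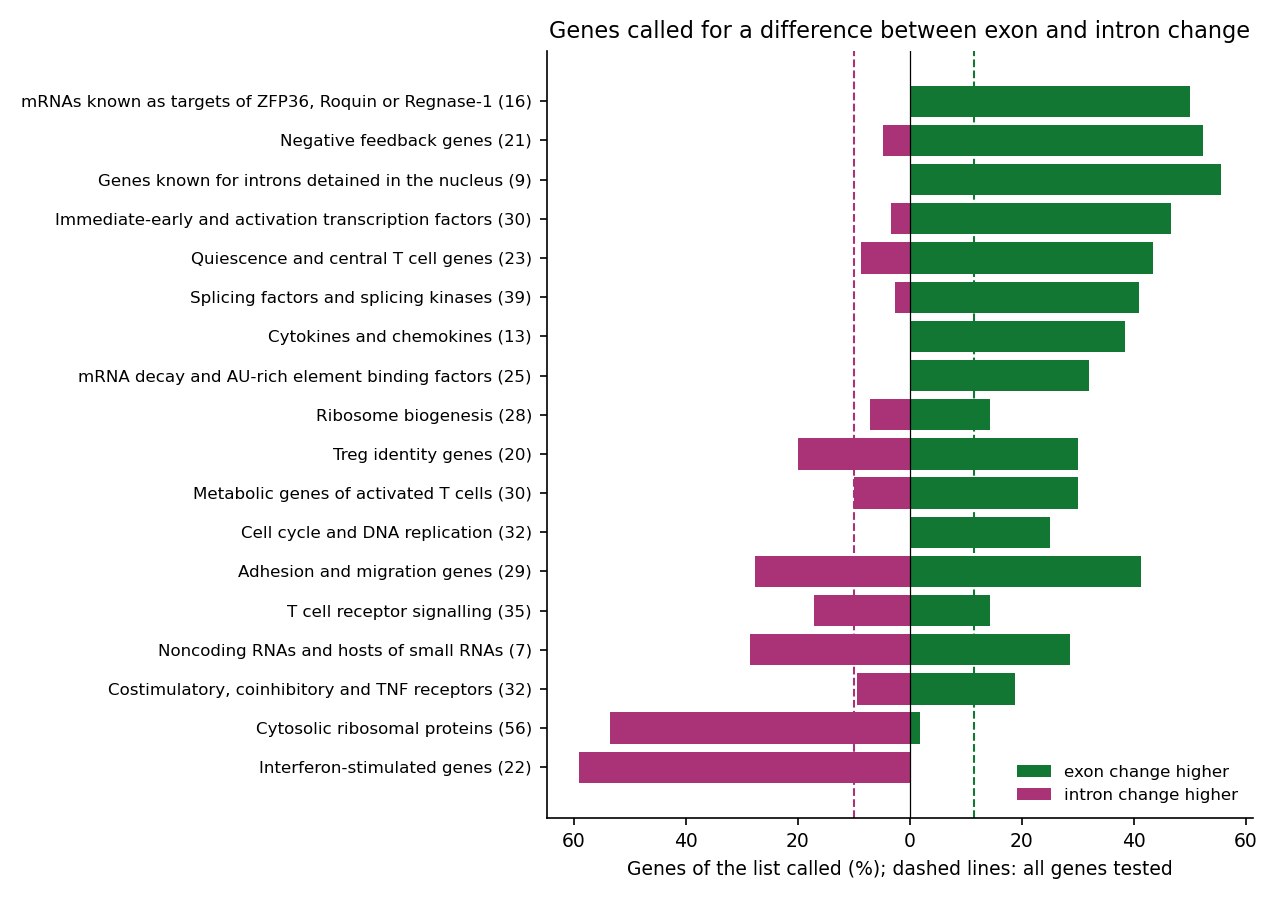
Share of the genes of each list (rows, number tested in brackets) with a called difference, in percent (x axis), to the right for an exon change above the intron change and to the left for the reverse. Dashed lines give the shares over all 8838 genes, 11.5% and 10.0%; cytosolic ribosomal proteins (30 of 56) and interferon-stimulated genes (13 of 22) reach furthest to the left.

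The genes of the 2 directions differed in length. Genes with an exon change above the intron change had a median length of 49.4 kb, those with the reverse 15.0 kb, and all genes tested 29.6 kb. In genes of up to 5 kb the median difference was -0.51, with 8.99% called higher and 26.7% called lower, and in genes over 80 kb it was 0.28, with 20.1% and 4.96%. From 20 to 40 kb the median was -0.06 with nearly equal shares (7.86% and 7.81%). The median intron change went from 0.35 in genes of up to 5 kb to -0.37 in genes over 80 kb, whereas the median exon change was -0.31 and -0.10 at these ends and between -0.02 and 0.09 in the classes between them. The medians of the shortest and the longest class were, in each genotype alone, -0.67 and 0.32 in CD18wt and -0.37 and 0.29 in CD18Foxp3 libraries, and in genes that no expressed gene overlaps -0.42 and 0.29. In genes with 10 intron reads in all 12 libraries they were -0.61 and 0.13, with -0.02 from 40 to 80 kb, where it was 0.18 over all genes tested. With exon library sizes all classes shifted down, from -0.83 to -0.05. Longer genes also hold more intron reads, and the part of depth, of annotated retained introns and of intron content in this order was not tested.

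**Figure D5:**
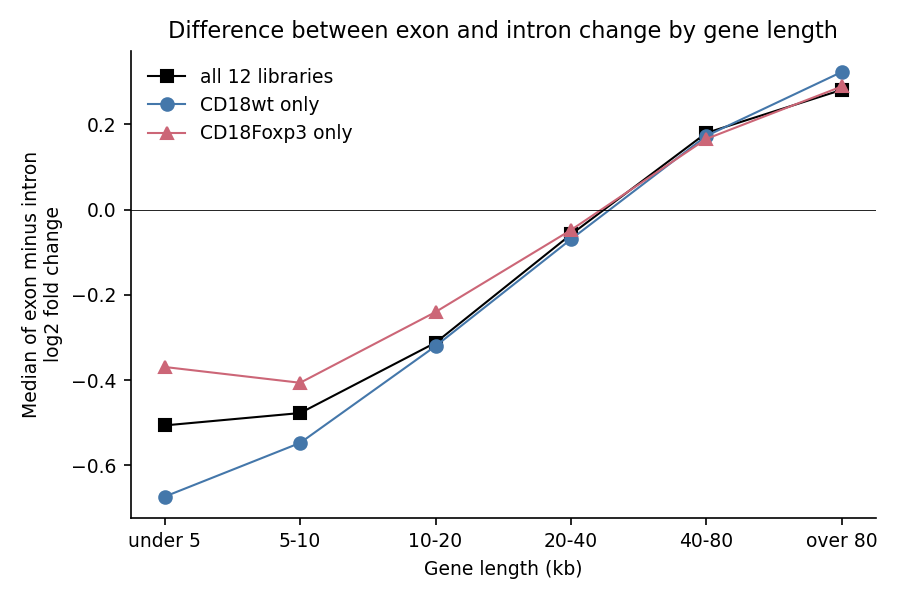
Median of the exon minus intron log2 fold change (y axis) by gene length in kb (x axis), for all 12 libraries (squares), CD18wt alone (circles) and CD18Foxp3 alone (triangles). The median goes from -0.51 in the shortest to 0.28 in the longest genes, and in each genotype the shortest genes lie below 0 and the longest above it.

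Intron changes can be compared with exon changes of other cells here, because the genotypes share no library. Across 8735 genes the intron change in CD18wt had a Pearson correlation of 0.525 (Spearman 0.45) with the exon change in CD18Foxp3, and across 8730 genes the intron change in CD18Foxp3 had 0.58 (Spearman 0.513) with the exon change in CD18wt. Within a read class the correlation between genotypes was 0.943 for exons and 0.826 for introns, and it was 0.727 for the difference. These correlations run over genes, which are not independent replicates, and are given as a description. No gene had a called genotype by stimulation interaction in introns (0 of 9688, edgeR quasi-likelihood test; 363 at an unadjusted p under 0.05, lowest adjusted p = 1.0), which at 3 libraries per group does not show that the genotypes respond alike.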

How the data were processed

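RNA of sorted splenic Treg was sequenced in 12 libraries (poly(A) selection, 15 PCR cycles, 59-base single reads). CLC Genomics Workbench 20.0 was used by the authors for mapping to GRCm38 and for counting. They deposited counts of exon, intron, junction and gene reads, in total and uniquely placed, without normalization, beside exon and gene lengths. Deposited TPM and RPKM were not used here.

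Total exon and total intron counts were each scaled by TMM and fitted with edgeR 4.0.16 (R 4.3.3; quasi-likelihood F-test), with genotype and stimulation as factors and Benjamini-Hochberg adjustment over all genes tested. For exons filterByExpr (minimum count 10) chose the genes, and intron genes with 10 reads in at least 6 libraries. The difference was the read class by stimulation term of 1 edgeR model over 24 columns, each library being a block. Called genes had a fold of 1.5 or more with an adjusted p of 0.01 or less. Standard errors are the size of a log2 fold change divided by the square root of F. The fit was tested on simulated counts.

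Genes named were the 8 largest called differences in each direction, and the 6 largest rises and falls called in both read classes, among genes with a mean of at least 50 intron reads, 80% unique exon reads and no overlapping gene with a mean of 10 exon reads, then members of 18 gene lists and Itgb2. The rises and falls called in both classes were ranked by the intron change. Named list members were picked after their values were seen. Some genes and sequences are not reported here. The genes, lists and tests were chosen with earlier results of these data known. The labels call the libraries of a group biological replicates and name no animals. In its legend for plots of cytokine transcripts of these cells, the paper describes the dots as individual mice. The p-values measure the spread between these libraries, which may be partly technical. Counts in PCR-amplified libraries are not independent molecules. Gene models came from GENCODE M21, and the miRNA sequence from RefSeq.

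Alternatives were DESeq2 1.42.0, limma 3.58.1 on log2 ratios with a prior count of 2, upper-quartile normalization, exon library sizes for introns, other filters, uniquely placed reads, genes without overlap, each genotype alone, an adjusted p of 0.05, the replicate number as block and each library left out. Added after seeing the data were fits without the 2 libraries of lowest intron share, without genes under the exon filter, with junction reads for exon reads, and the genotype interaction. Tables and figures used Python 3.11.15, pandas 2.3.3, scipy 1.17.1 and matplotlib 3.10.9.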

Additional observations from a re-analysis of the deposited data

Results flagged for a closer look

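Dixon's test on the 6 libraries of a culture marked 19 values of 110 groups tested; chance alone marks about 1 in 20 groups. Of these, 9 were in CD18wt Unstimulated replicate 3. It had the lowest intron share, 3.32%, and the lowest levels of Tnfaip3 introns (134 CPM), Bhlhe40 exons (57.8 CPM) and Bhlhe40 introns (10.6 CPM). It had the highest levels of Cdk8 introns (8560 CPM), Rpl22 exons (1190 CPM), Rps15 exons (3420 CPM), Socs2 introns (49.4 CPM) and Lta exons (31.0 CPM) among the Unstimulated libraries.

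CD18wt Stimulated replicate 3 was the highest Stimulated library for the introns of Odc1 (165 CPM), Dusp4 (168 CPM) and Irf4 (953 CPM), and for the exons of Gm26887 (0.056 CPM, a single read). CD18wt Stimulated replicate 2 was the highest for the introns of Cdk8 (3050 CPM), Bcat1 (335 CPM) and Fosb (5.98 CPM). The remaining values were Fos introns in CD18Foxp3 Stimulated replicate 3 (4.64 CPM), Klf2 exons in CD18wt Stimulated replicate 1 (82.3 CPM) and Rpl22 exons in CD18Foxp3 Stimulated replicate 1 (609 CPM).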

How the results depend on the processing

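Counts of called genes moved by over 1.5 times under these settings, some of which also changed the number of genes tested. With 10 intron reads in all 12 libraries, only 4941 of the 9688 genes were tested in introns. Of these, introns rose in 818 and fell in 851, and the difference was higher in 505 and lower in 904. Another fit left out the 5298 of the 9688 genes that overlap any other gene, expressed or not. The counts were then 638 and 729 for introns and 436 higher and 420 lower for the difference. CD18wt libraries alone gave 262 and 491 for introns and 84 and 58 for the difference. CD18Foxp3 libraries alone did not move the counts that far, with 1301 and 1437 for introns and 965 and 700 for the difference. Each of these fits held 3 Stimulated and 3 Unstimulated libraries. Most differences called over all 12 libraries were thus not called in CD18wt alone, and the cause was not tested. Without a filter, and so with more genes tested, introns rose in 2575. With exon library sizes introns fell in 747 and the difference was higher in 328, and with upper-quartile normalization the difference was higher in 610 and lower in 1454. At an adjusted p of 0.05 it was lower in 1434. The intron share differed by 0.657 points without the 2 libraries of lowest share (exact permutation p = 0.0476), and by 0.344 to 0.916 when each library was left out. Leaving out each library gave 760 to 1187 differences higher and 706 to 970 lower, 1067 to 1631 introns higher and 1292 to 1590 lower. In these fits the rule was applied anew to the libraries left. The 676 genes with 10 intron reads in exactly 6 libraries thus left the test when 1 of those 6 was left out. Of the 1020 and 884 called differences, 641 and 551 kept their call whichever library was left out. With uniquely placed reads 933 and 764 kept it, and with DESeq2 935 and 879. The difference of Gm26887 (-0.19) was 1.51 in limma; the cause was not tested.

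The labels do not say whether same-numbered libraries of a genotype belong together. Their deviations correlated at 0.0695 to 0.147 in CD18Foxp3 exons, where unlike numbers gave -0.124 to -0.0209, and each CD18Foxp3 library correlated best with its own number in both read classes, a hint from the data. In CD18wt same numbers gave -0.0922 to 0.0955 in exons and -0.153 to -0.029 in introns, so the libraries were not treated as pairs. With the replicate number as block, introns rose in 1332 and fell in 1369 genes, exons in 2785 and 2437, and the difference was higher in 752 and lower in 653; the calls of Bhlhe40 and Odc1 introns and Sik1 exons, among others, were lost. Intron depth limits what can be seen: the median standard error was 0.488 with under 20 mean reads and 0.188 with over 100.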
